A study of Caenorhabditis elegans with 4 samples.

Results

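Collagens of the nematode cuticle pass through a fixed set of enzymes before they form a stable extracellular layer, and transcripts of 9 of these enzymes or their partners are described here. They are the prolyl 4-hydroxylase and disulfide isomerase genes dpy-18, phy-2, pdi-2 and pdi-1, the processing protease genes bli-4 and dpy-31, and the crosslinking genes bli-3, mlt-7 and tsp-15. They were chosen by name for their known roles, but with earlier results of these data known. The choice was therefore not independent of the values. All 9 were found by symbol among 14943 named genes of the array. RNA came from glp-4 larvae of Caenorhabditis elegans at L4, the stage before adulthood, in 4 separate preps, each hybridised on its own array together with a reference of wild-type animals of mixed stages. The glp-4 allele, the growth temperature and the staging are not given by the labels. The glp-4 gene encodes a valyl-tRNA synthetase, and temperature-sensitive mutants are known to form almost no germline when grown warm. The reference differs from the glp-4 animals in genotype and in the stages it holds, and these cannot be told apart here.

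Cuticle collagens are made in the epidermis before each moult. In the endoplasmic reticulum, prolyl 4-hydroxylases add hydroxyl groups to proline, which stabilises the triple helix, and disulfide isomerases help the chains to fold and also serve as the second subunit of the hydroxylase. Proteases then trim the ends of the procollagen, and after secretion a dual oxidase supplies hydrogen peroxide with which a peroxidase links tyrosines of neighbouring chains. Animals that lack these activities are known for short, blistered or moulting-defective bodies, hence gene names such as dpy, bli and mlt.

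Each value is a log2 ratio, read as glp-4 L4 over reference. The labels leave the direction of division unstated. The order of the channels makes glp-4 L4 over reference the likely one, and the words higher and lower depend on it. Whether the preps came from separate cultures is not stated, so p-values cover only the spread seen between these preps, and how far the reference channel adds to that spread was not measured. In RNA of whole animals, fewer cells of a type and less RNA per cell cannot be told apart.

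Transcripts of 8 of the 9 genes were higher in glp-4 L4 larvae than in the reference, and tsp-15 did not pass the test (limma, adjusted p under 0.05 over all 19989 items). By the same rule 20.6% of all items were higher. No member was lower by the same rule, against 24.4% of all items. At an unadjusted p under 0.05 the count of lower members was also 0, and the share of all items at that threshold was not taken. The median of the 9 mean log2 ratios was 0.79, against -0.058 over all items. A mean of at least 1 was reached by 4 of the 9, against 10.4% of all items. Ratios were above 0 in all 4 preps for 7 of the 9 genes, against 26.5% of the items measured on all 4 arrays. The exceptions were dpy-31 and tsp-15. Past a 2-fold change lay dpy-18 alone (limma treat, adjusted p = 0.0208), against 4.38% of all items higher by that test, and it did not pass 2-fold without prep 3 or without prep 4. The first count was 7, 6, 5 and 6 of 9 without preps 1, 2, 3 and 4 in turn.

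**Figure D1:**
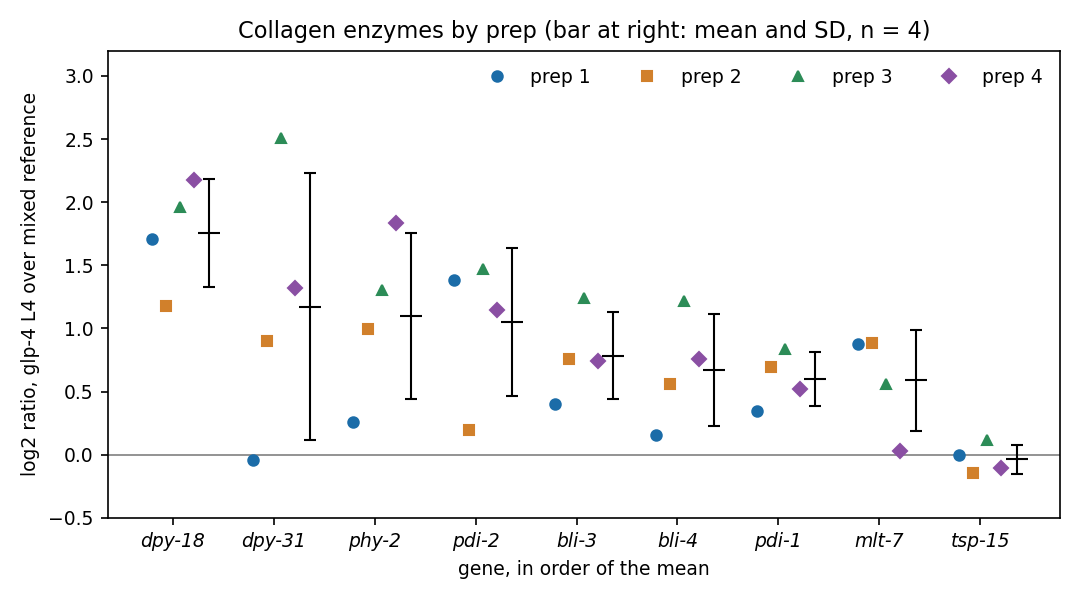
Log2 ratio (glp-4 L4 over mixed reference) of the 9 genes on the y axis, ordered by mean on the x axis, with 1 symbol for each of the 4 preps and the mean and SD (n = 4) at the right of each gene. The dpy-18 points lie between 1.18 and 2.18, dpy-31 spans -0.038 to 2.51, and the tsp-15 points lie between -0.15 and 0.11.

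Markers of 2 tissues were read in the same comparison, beside 20.6% higher and 24.4% lower over all items. Germline markers were nearly all lower, whereas epidermal markers went both ways. Of 18 measured germline markers 17 were lower, with 0 higher by limma (0 higher at an unadjusted p too), and their median was -2.03, -2.27, -1.91 and -2.56 on preps 1 to 4. Among them gld-1 had -3.55 ± 0.33 and him-3 -3.68 ± 0.68 (SD, n = 4). Of 11 epidermal markers 6 were higher and 3 lower, and their median was 0.88, 0.28, 1.37 and 1.21 on preps 1 to 4, led by the hedgehog-related genes grd-5 at 1.99 ± 0.09 and wrt-10 at 1.90 ± 0.65. The 3 lower ones, chosen after the values were seen, were the transcription factor genes elt-1 at -0.67 ± 0.21, elt-3 at -0.41 ± 0.17 and nhr-25 at -0.38 ± 0.10, and without prep 2 or prep 4 only 1 marker was lower. The collagen gene dpy-7 stands in this list and in that of the collagens. The part of either tissue in the ratios of the enzymes was not tested.

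All 3 prolyl 4-hydroxylase subunits were higher, each with ratios above 0 on all 4 arrays. The gene dpy-18 encodes a catalytic alpha subunit, and its loss gives short, fat worms. On preps 1 to 4 it had log2 ratios of 1.71, 1.18, 1.96 and 2.18. All 4 arrays showed at least 2.27 times the reference level, and the value exceeded that of at least 91.1% of the items on each array. The mean was 1.76 ± 0.43 (SD, n = 4), a 3.38-fold ratio with a 95% interval from 2.53 to 4.52, and the limma adjusted p was 0.000123.

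The other alpha subunit, phy-2, partly stands in for dpy-18 and is essential together with it. It had log2 ratios of 0.26, 1.00, 1.31 and 1.83. All were positive, but prep 1 lay at 1.196 times the reference and prep 4 at 3.56 times. Its mean was 1.10 ± 0.66 (SD, n = 4; limma adjusted p = 0.00576), with a larger SD than 92.3% of all items.

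The beta subunit comes from pdi-2, a disulfide isomerase that holds both alpha subunits in their active complexes. The log2 ratios of pdi-2 were 1.38, 0.20, 1.47 and 1.15, high on 3 arrays and close to 0 on prep 2. The mean was 1.05 ± 0.58 (SD, n = 4; limma adjusted p = 0.00482). Thus dpy-18 and pdi-2 had their lowest value on prep 2, whereas phy-2 had its lowest on prep 1.

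The related disulfide isomerase pdi-1 is not needed for the hydroxylase complexes. It had log2 ratios of 0.34, 0.70, 0.84 and 0.52, the narrowest range of the 8 genes that were higher. Its mean was 0.60 ± 0.22 (SD, n = 4; limma adjusted p = 0.00955), a 1.52-fold ratio. Without prep 2 the adjusted p was 0.0537.

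Both processing proteases were higher on average, with prep 3 the highest array for each. The gene bli-4 encodes a subtilisin-like proprotein convertase that is thought to cut cuticle collagens near their N-terminal end. For bli-4 the log2 ratios were 0.16, 0.56, 1.22 and 0.76, positive throughout. The mean was 0.67 ± 0.44 (SD, n = 4; limma adjusted p = 0.0181), and the adjusted p was 0.0720 without prep 3 and 0.0723 without prep 4.

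The gene dpy-31 encodes an astacin metalloprotease that removes the C-terminal propeptide, with the collagen SQT-3 as its known substrate. It was the most variable of the 9, with log2 ratios of -0.038, 0.90, 2.51 and 1.32. Prep 1 lay at the reference level and near the middle of its array (above 45.8% of the items), while prep 3 lay at 5.70 times the reference and above 98.3% of the items. The mean was 1.17 ± 1.06 (SD, n = 4; limma adjusted p = 0.0236), with an SD above that of 98.5% of all items. Without prep 3 the mean was 0.73 with an adjusted p of 0.0753, and without prep 4 the adjusted p was 0.0791.

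Of the crosslinking genes, the oxidase and the peroxidase were higher and the tetraspanin did not pass the test. The dual oxidase gene bli-3 had log2 ratios of 0.40, 0.75, 1.24 and 0.75, averaged over its 2 probes. All were positive, and the mean was 0.79 ± 0.35 (SD, n = 4; limma adjusted p = 0.00516). Tested singly, its probes had means of 0.81 ± 0.22 and 0.76 ± 0.48 (SD, n = 4), both higher, and differed by at most 0.37 on any array. The paralog duox-2 is closely similar in sequence. Whether it binds the bli-3 probes was not checked, which leaves the split between the 2 genes uncertain. The probe of duox-2 itself had a mean of 0.87 ± 0.23 (SD, n = 4).

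The haem peroxidase gene mlt-7 acts with bli-3 in building the cuticle at moults. It had log2 ratios of 0.88, 0.88, 0.56 and 0.031, in another order than most of the set: preps 1 and 2 were the highest and prep 4 lay at 1.02 times the reference. The mean was 0.59 ± 0.40 (SD, n = 4; limma adjusted p = 0.0259). The call was lost without prep 1, 2 or 3, with adjusted p of 0.0564, 0.119 and 0.0717.

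The tetraspanin gene tsp-15 encodes a membrane protein needed in the epidermis, where it works with bli-3 and doxa-1 to produce hydrogen peroxide. The log2 ratios were -0.0029, -0.15, 0.11 and -0.11, on both sides of 0 and close to it. The mean was -0.036 ± 0.12 (SD, n = 4; limma adjusted p = 0.846), and its 95% interval ran from -0.34 to 0.27, a 0.790- to 1.21-fold ratio. A change larger than that lay outside the interval, and a smaller one was not detectable with 4 arrays. The spread between arrays was small too, since the SD exceeded that of 6.11% of all items.

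The preps did not weigh equally across the set. Prep 3 held the highest ratio of 6 of the 9 genes, and prep 1 the lowest of 5. The median of the 9 genes was 0.34, 0.75, 1.24 and 0.76 on preps 1 to 4, while the median of all tested items was 0.021, -0.029, -0.12 and -0.077. Relative to the median of its array the set therefore lay at 0.32, 0.78, 1.36 and 0.84 on the log2 scale. Preps 3 and 4 share a code and a date in their titles, and the labels do not say what either records. With these preps as a random block 8 genes were higher, and with preps 3 and 4 averaged 6 were.

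Most enzymes next to each other in order of the mean could not be ranked. In order of the mean, dpy-18 was followed by dpy-31, phy-2, pdi-2, bli-3, bli-4, pdi-1, mlt-7 and tsp-15. Of the 8 neighbouring pairs in this order only mlt-7 and tsp-15 differed by more than the SD of their difference, with mlt-7 above tsp-15 in 4 of 4 arrays. The other 7 neighbours did not differ beyond their spread. Neighbours in this order lie closest in mean, so this does not rank enzymes further apart.

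Differences of log2 ratios within each array do not depend on how an array was centred, and 6 pairs were compared by role, with an exact two-sided sign-flip permutation test whose smallest p with 4 preps is 0.13 (rounded). Between the alpha subunits, dpy-18 exceeded phy-2 in 4 of 4 arrays, by 1.45, 0.18, 0.66 and 0.34 (mean 0.66 ± 0.57, SD, n = 4; exact permutation p = 0.13, adjusted over the pairs 0.25). Without prep 1 the mean difference was 0.39. The disulfide isomerase pdi-2 exceeded pdi-1 in 3 of 4 arrays (mean difference 0.45 ± 0.66; exact permutation p = 0.25, adjusted 0.3), and dpy-31 exceeded bli-4 in 3 of 4 (0.50 ± 0.62; exact permutation p = 0.25, adjusted 0.3). Single preps moved both: pdi-2 minus pdi-1 was 0.25 without prep 1 and 0.77 without prep 2, and dpy-31 minus bli-4 was 0.24 without prep 3. The oxidase bli-3 lay below the peroxidase mlt-7 on preps 1 and 2 and above it on preps 3 and 4, with a mean difference of 0.20 ± 0.59 (exact permutation p = 0.5). That difference was 0.42 without prep 1, 0.31 without prep 2, 0.036 without prep 3 and 0.025 without prep 4. Against tsp-15, bli-3 was above in 4 of 4 arrays by 0.82 ± 0.30, and mlt-7 in 4 of 4 by 0.62 ± 0.41 (SD, n = 4; exact permutation p = 0.13 each, adjusted 0.25).

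**Figure D2:**
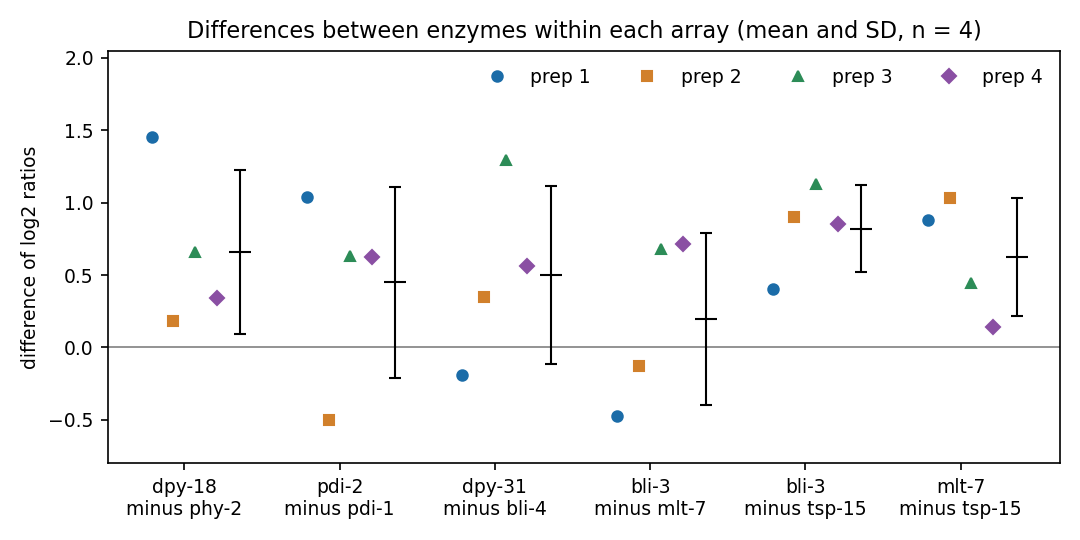
Difference of the log2 ratios of 2 genes on the same array (y axis) for the 6 pairs (x axis), with 1 symbol for each prep and the mean and SD (n = 4) at the right. The pairs dpy-18 minus phy-2, bli-3 minus tsp-15 and mlt-7 minus tsp-15 lie above 0 on all 4 arrays, and bli-3 minus mlt-7 falls on both sides of 0.

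The genes around these enzymes in the pathway were followed through lists, whose counts are to be read against 20.6% higher and 24.4% lower over all items. Of the other prolyl hydroxylases, 1 of 2 measured genes was higher and 0 lower by limma (0 lower at an unadjusted p too). This was phy-3, a hydroxylase known from the spermatheca, with log2 ratios of 0.88, 0.35, 0.28 and 0.64 and a mean of 0.54 ± 0.28 (SD, n = 4; limma adjusted p = 0.0211). Without prep 4 it was not called. The lysyl hydroxylase let-268 was not measured here. The other measured gene, phy-4, was named after its value was seen and had a mean of -0.19 ± 0.35, which did not pass.

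Genes listed for folding in the endoplasmic reticulum were mostly higher. Of 16 measured, 11 were higher, 1 lower and 4 did not pass, with a median of 0.76 against -0.058 over all items. Whether each cyclophilin of the list acts in the endoplasmic reticulum was not checked. Of these, named after their values were seen, cyn-5 was higher, cyn-9 was lower, and cyn-10 and cyn-11 did not pass. The FK506-binding peptidyl-prolyl isomerase genes fkb-3 and fkb-5 led the list. Their log2 ratios were 1.90, 2.13, 3.26 and 3.10 for fkb-3 and 1.39, 2.03, 2.61 and 2.74 for fkb-5, all above every value of pdi-1. The means were 2.60 ± 0.68 and 2.19 ± 0.62 (SD, n = 4), which can be set beside 1.76 for dpy-18. The BiP chaperone genes hsp-3 and hsp-4, named after their values were seen, were higher as well, at 1.26 ± 0.31 and 1.16 ± 0.28. So were the disulfide isomerase genes pdi-6 at 2.00 ± 0.78 and pdi-3 at 0.72 ± 0.16, also named after their values were seen. Without prep 1, 2 genes of the list were lower.

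The lower gene of the folding list was cyn-9, a cyclophilin gene whose name is given after its value was seen. It is known to share an operon with pdi-1. Its log2 ratios were -2.06, -1.81, -1.51 and -1.68, all far below the 0.34 to 0.84 of pdi-1, with a mean of -1.76 ± 0.23 (SD, n = 4; limma adjusted p = 3.90e-05). Both of its probes were lower when fitted singly, at -2.28 ± 0.29 and -1.25 ± 0.54. The difference between pdi-1 and cyn-9 on the same array was 2.36 ± 0.13 (SD, n = 4), with the 2 cyn-9 probes averaged. Its SD was below the SD of either gene alone, but the 2 probes did not run alike. On preps 1 to 4 they had -2.40, -1.91, -2.20 and -2.59, and -1.72, -1.72, -0.81 and -0.76. The difference was not taken for either probe singly, so its small SD holds only for the average.

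This led to a comparison of each enzyme gene with the protein-coding genes beside it in the RefSeq gene table, chosen after the values of cyn-9 were seen. Of 18 flanking genes 15 were measured, of which 3 were higher, 3 lower and 9 did not pass, near the 20.6% higher and 24.4% lower of all items. The values of these neighbours are given as a description. Both neighbours of pdi-1 were among the lower ones, cyn-9 before it and C14B1.2 after it. For C14B1.2 the log2 ratios were -3.27, -2.42, -2.47 and -2.50. The remaining lower gene was rde-3, a gene of RNA interference beside bli-4, at -0.95 ± 0.25 (SD, n = 4). Among higher neighbours, the Patched-related gene ptr-11 beside bli-3 had a mean of 1.44 ± 0.61 and lay above bli-3 on all 4 arrays. Beside dpy-18, the alpha tubulin gene tba-7 had 0.74 ± 0.19, 1.02 ± 0.47 below dpy-18, and beside phy-2 the gene F35G2.5 had 1.04 ± 0.57.

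**Figure D3:**
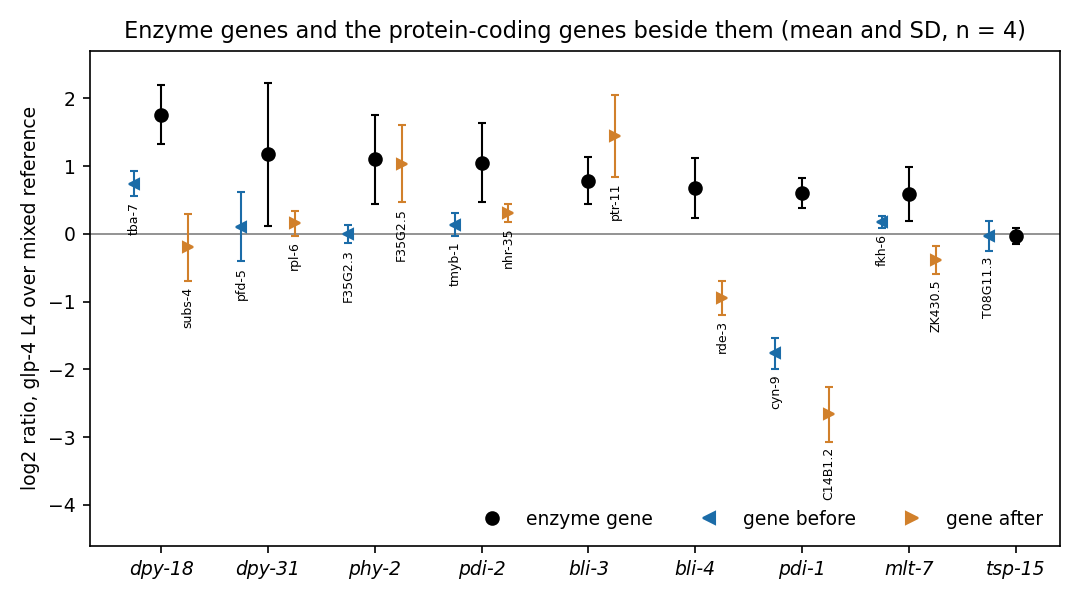
Mean log2 ratio and SD (n = 4, y axis) of each enzyme gene (black circle) and of the measured protein-coding genes before and after it in the RefSeq gene table (left and right triangles), with enzymes in order of the mean on the x axis. The genes on both sides of pdi-1, at -1.76 and -2.66, lie below 0 while pdi-1 lies at 0.60.

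Genes of a list of proprotein convertases and moulting proteases with inhibitors were mostly higher too. Whether each of them acts on the cuticle was not checked. Of 10 measured, 7 were higher, 1 lower and 2 did not pass, with a median of 1.14. The moulting astacin nas-36 had log2 ratios of 2.23, 2.55, 1.75 and 3.04 and a mean of 2.39 ± 0.54, and the astacin nas-7 had 1.85 ± 0.22 (SD, n = 4). Both belong to the family of dpy-31, whose SD was larger at 1.06, and both lay above dpy-31 on preps 1, 2 and 4. The Kunitz-type protease inhibitor gene bli-5 had 1.16, 1.26, 1.33 and 1.93, with a mean of 1.42 ± 0.35. The listed gene mlt-11, named after its value was seen, had a mean of -0.11 ± 0.60 and did not pass. The lower gene, named after its value was seen, was egl-3, a neuronal convertase of the same family as bli-4, at -1.81 ± 0.25. The relatives bli-4 and egl-3 thus had opposite signs on every array. Another convertase gene of the list, aex-5, also named after its value was seen, was higher. It had 1.10, 1.01, 1.28 and 0.84 on preps 1 to 4, with a mean of 1.06 ± 0.18. Without prep 1, 2 genes of this list were lower.

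Of 13 measured oxidases, peroxidases and tyrosinases, 4 were higher, 3 lower and 6 did not pass, with a median of 0.34. These counts lie near the shares of all items, 20.6% higher and 24.4% lower. The dual oxidase maturation factor gene doxa-1, which forms a complex with bli-3 and tsp-15, had log2 ratios of 1.07, 0.98, 1.11 and 0.89, close together on all arrays. Its mean was 1.01 ± 0.10 (SD, n = 4; limma adjusted p = 0.000407), a 2.02-fold ratio, beside 0.79 for bli-3 and -0.036 for tsp-15. The peroxidase gene skpo-1, a relative of mlt-7 known from immune defence, was lower at -1.92 ± 0.93, with -1.30, -1.10, -2.15 and -3.15 on preps 1 to 4. The tyrosinase gene tyr-5 was lower at -1.64 ± 0.57. The remaining calls, chosen after the values were seen, were duox-2, the peroxidasin pxn-1 at 1.09 ± 0.45 and tyr-4 at 1.17 ± 0.31, all higher, and tyr-3 at -0.89 ± 0.42.

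Of 16 measured tetraspanins other than tsp-15, 6 were lower, 2 higher and 8 did not pass, with a median of -0.23, beside 24.4% lower and 20.6% higher over all items. The lowest were tsp-5 at -1.45 ± 0.43 and tsp-4 at -1.10 ± 0.19 (SD, n = 4). Higher were tsp-10 at 1.01 ± 0.29 and tsp-14 at 0.92 ± 0.12, both chosen after the values were seen. Without prep 2, 3 or 4, 3 of the 16 were lower.

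COPII coats form the vesicles that carry collagen out of the endoplasmic reticulum. Of 10 genes of these coats and of collagen secretion, 3 were higher, 1 lower and 6 did not pass, with a median of 0.18. Over all items 20.6% were higher and 24.4% lower. The cargo adaptor sec-24.1 had 0.45, 0.47, 0.49 and 1.15, with a mean of 0.64 ± 0.34, and the coat GTPase sar-1 had 0.59 ± 0.34 (SD, n = 4). Also called, and chosen after the values were seen, were sec-12 at 0.50 ± 0.33 and tmem-39, a gene known for collagen secretion, at -0.50 ± 0.35. These counts moved with single arrays: 1 was higher without prep 2 or prep 3 and 0 without prep 4, and tmem-39 was not called without prep 1, 2 or 4.

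Cuticle collagens were mostly higher, though which of them each enzyme acts on was not examined. Of 17 collagens named for cuticle phenotypes, 15 were higher, 1 lower and 1 did not pass, with a median of 1.89 against 0.79 for the enzymes. The collagen sqt-3, the known substrate of dpy-31, had log2 ratios of 1.13, 0.82, 1.12 and 0.61 and a mean of 0.92 ± 0.25 (SD, n = 4; limma adjusted p = 0.00132). It was thus positive on prep 1, where dpy-31 lay at -0.038. The collagens bli-1 and bli-2, of the struts that join the layers of the adult cuticle, had the largest means, 3.98 ± 0.08 and 5.78 ± 0.57. The lower one, named after its value was seen, was dpy-17, a collagen known to act with sqt-3, at -2.60 ± 0.25.

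**Figure D4:**
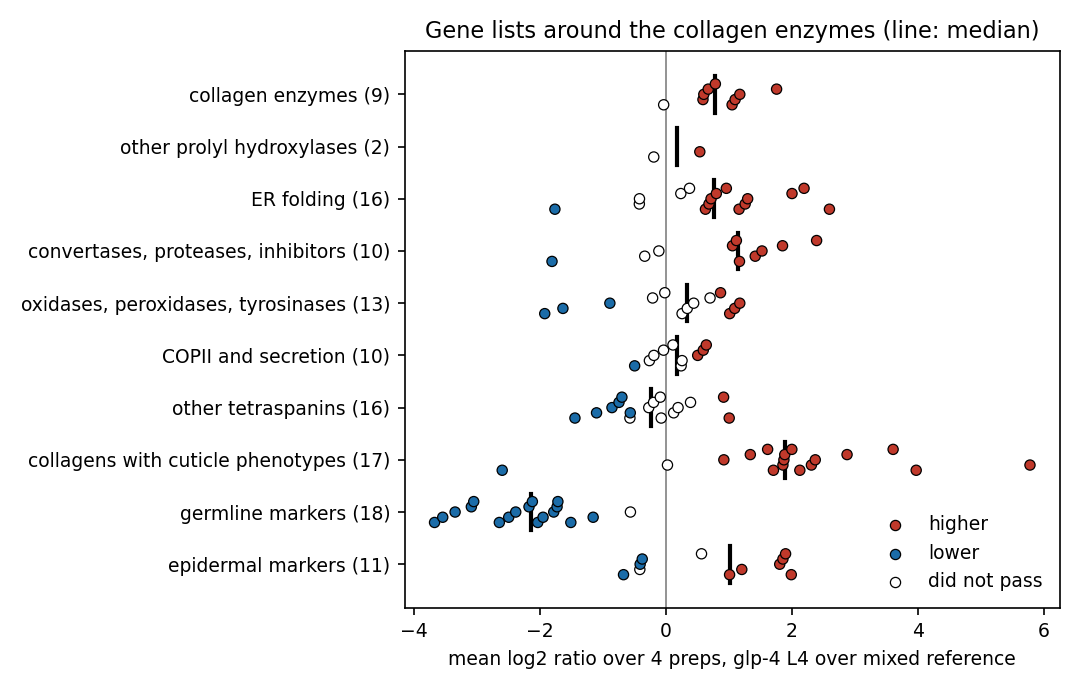
Mean log2 ratio over 4 preps (x axis) of the 9 collagen enzymes and of each companion list (rows, number measured in brackets), with 1 point for each gene, red for higher, blue for lower and white for genes that did not pass, and a black line at the median. The medians run from -2.15 for the germline markers to 1.89 for the collagens.

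The genes nearest to each enzyme in their 4 ratios were found by the root mean square difference over the 4 preps among 14638 other named genes. For pdi-1 it was klp-3, at 0.0288, and for bli-3 and bli-4 it was trak-1 at 0.0435 and bgnt-1.8 at 0.0462. The nearest to tsp-15 was T05B4.8 at 0.0437, to phy-2 T05C12.4 at 0.0966, to mlt-7 the astacin gene nas-25 at 0.115 and to dpy-18 the lectin gene clec-187 at 0.140. For pdi-2 and dpy-31 no gene came within 0.2, and the nearest were twk-26 at 0.232 and C17C3.1 at 0.291. With 4 arrays many genes lie close by number alone: within 0.2 there were 357 genes for pdi-1 and 779 for tsp-15, against 7 for dpy-18.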

How the data were processed

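The authors deposited log2 ratios, 1 column for each of 4 two-channel arrays. Base 2 was read from the values: under it, every ratio below 20 came out in whole thousandths (tolerance 0.01 thousandths; 100% on each array). How the authors corrected background, normalized dyes, centred arrays or filtered spots is not given in the sources used here. Array medians ran from -0.12 to 0.020. Intensities were not used, and precision is limited by having 4 arrays.

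Probes were named from the platform annotation, with symbols updated through the RefSeq gene table of assembly WBcel235. Of 21632 probes, 16450 had 1 gene symbol, 247 several and 4935 none here. Where a gene had several probes, their mean on that array was used. Items (14943 named genes, and probes without 1 symbol) with values on at least 3 arrays were tested, 19989 in all. An intercept was fitted per item with limma 3.58.1 under R 4.3.3, and moderated two-sided p-values (eBayes) were adjusted over all items by Benjamini-Hochberg, with 0.05 as the threshold. The function treat gave the test past 2-fold. Pairs of enzymes were compared by an exact two-sided sign-flip permutation test. The limma fit and its adjusted p were tried on simulated data with independent noise on each array. The other steps were not simulated.

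The 9 enzymes and the companion lists were chosen with earlier results of these data known. Genes named outside the 9 enzymes were, for each list, the 2 with the largest absolute mean among those called and of 1 sign on all 4 arrays, then sqt-3, doxa-1, bli-5 and let-268, and for each enzyme the gene with the nearest ratios. Other genes are marked as chosen later. The alternatives were arrays centred, or centred and scaled alike, each prep left out, preps 3 and 4 (whose titles share a code and a date) as a random block with a correlation of 0.37 or averaged, a fit per probe, no or robust moderation, items on all 4 or at least 2 arrays, an adjusted p under 0.01, an absolute mean of at least 1, and every sign turned.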

Additional observations from a re-analysis of the deposited data

Results flagged for a closer look

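Dixon's ratio was used to look for a single prep far from the rest in 44 sets of 4 values (enzymes, their differences, list medians and named companion genes). It picked out 2 sets, and at 1 in 20 chance alone gives about 2.2. Neither was an enzyme or a difference between enzymes. For the coat gene sec-24.1 prep 4 was high at 1.15, while the remaining preps lay between 0.45 and 0.49. For the tetraspanin gene tsp-4 prep 1 was low at -1.38, while the remaining preps lay between -1.03 and -0.99.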

How the results depend on the processing

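The preps could not be paired with separate control preps, because each array holds 1 prep against a common reference. Apart from turning every sign, no enzyme that was higher changed direction under the alternatives run, and dpy-18 kept its call in all of them. Without moderation 2 of the 8 remained higher (dpy-18 and pdi-1), with adjusted p of 0.106 for phy-2 (mean 1.10), 0.0931 for pdi-2 (1.05), 0.123 for bli-4 (0.67), 0.201 for dpy-31 (1.17), 0.0632 for bli-3 (0.79) and 0.130 for mlt-7 (0.59). With preps 3 and 4 averaged bli-4 had 0.57 and dpy-31 0.93, neither called. Leaving out 1 prep gave means of 0.52 to 0.69 for pdi-1, 0.49 to 0.84 for bli-4, 0.73 to 1.58 for dpy-31, 0.49 to 0.77 for mlt-7 and -0.085 to 0.0010 for tsp-15, and 5 to 7 enzymes higher. At an adjusted p under 0.01, 5 were higher (15% of all items), and 4 had a mean of at least 1 (10.4% of all items). For tsp-15 the mean was 0.017 with arrays centred, 0.010 with arrays also scaled and 0.0010 without prep 2. Past 2-fold there were 0 enzymes without moderation or with preps 3 and 4 averaged, and 0 to 1 leaving out a prep. Turning every sign gave, by construction, 0 higher and 8 lower, with -1.76 for dpy-18, -1.10 for phy-2, -1.05 for pdi-2, -0.60 for pdi-1, -0.67 for bli-4, -1.17 for dpy-31, -0.79 for bli-3, -0.59 for mlt-7 and 0.036 for tsp-15.

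Without moderation the higher counts were 0 for the other prolyl hydroxylases, 7 for folding and 0 for secretion, and the lower counts were 1 for oxidases and peroxidases, 0 for secretion and 2 for tetraspanins. With preps 3 and 4 averaged, secretion had 1 higher and 0 lower, tetraspanins 3 lower and epidermal markers 1 lower. Arrays centred, or preps 3 and 4 as a block, gave 0 lower for secretion and 1 lower for epidermal markers. Leaving out 1 prep gave 0 to 1 higher for the other prolyl hydroxylases, 1 to 2 lower for folding and for proteases, 0 to 3 higher and 0 to 1 lower for secretion, 3 to 8 lower for tetraspanins and 1 to 3 lower for epidermal markers. The causes were not tested.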
